A study of Mus musculus with 4 samples.

Results

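The 8 keratin genes described here are Krt7, Krt8, Krt18 and Krt19, keratins of simple epithelium, and Krt5, Krt14, Krt15 and Krt17, keratins of basal and transitional epithelium. They were listed by name, and all 8 were found among 30142 mouse genes measured with a transcript cluster that names a single gene. The samples are lung cells negative for CD45, the surface marker of leukocytes, from C57BL/6 mice. PBS or bleomycin (BLM), a drug that breaks DNA and injures the lung, had been put into the trachea 10 days earlier. There were 2 PBS arrays and 2 BLM arrays, each hybridised with total RNA of 1 sample, and the comparison asks how these cells differ while fibrosis develops. No dose, sex, age or number of pooled animals is given in the sources used here. The labels do not tie replicates to different mice. A p-value here reflects the scatter among these 4 samples and nothing wider, and that scatter may be technical.

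Keratins are the intermediate filament proteins of epithelial cells. A filament is built from paired type I and type II chains. Krt8 and Krt7 are type II and Krt18 and Krt19 are type I keratins of single-layered epithelium, which in the lung includes alveolar and airway lining cells, and of mesothelium. Krt5 (type II) and Krt14 (type I) form the filaments of airway basal cells, with Krt15 and Krt17 as further type I keratins of basal cells and of cells under repair. After lung injury, alveolar epithelial cells can pass through a keratin-rich transitional state for which Krt8 is the usual marker.

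A RefSeq promoter window, 250 bases before to 50 after the annotated start, was at hand for 5 of the 8 genes, Krt8, Krt18, Krt7, Krt5 and Krt14, and that of Krt14 starts inside the gene. The windows of Krt8 and Krt18 are shown because these genes encode the partners of the main simple-epithelial filament and are next to each other in gene order, and because Krt18 rose while Krt8 did not pass the test. The Krt8 window is chr15:102004293-102004592 on the minus strand and that of Krt18 chr15:102027966-102028265 on the plus strand, both GRCm38.p6 and both written 5′ to 3′. Capitals mark matches on either strand to any of 5 motifs. These were the TATA box, searched as TATAAA, the promoter box of the letters CCAAT, the GC box, searched as GGGCGG, the AP-1 site, searched as TGANTCA, and the E-box bound by Snail-type repressors, searched as CACCTG.
Krt8: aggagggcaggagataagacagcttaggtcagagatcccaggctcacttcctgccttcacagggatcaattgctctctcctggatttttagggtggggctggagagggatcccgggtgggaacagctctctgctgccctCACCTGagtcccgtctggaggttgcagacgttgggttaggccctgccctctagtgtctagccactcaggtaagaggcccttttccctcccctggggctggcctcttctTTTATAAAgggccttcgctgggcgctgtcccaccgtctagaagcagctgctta
Krt18: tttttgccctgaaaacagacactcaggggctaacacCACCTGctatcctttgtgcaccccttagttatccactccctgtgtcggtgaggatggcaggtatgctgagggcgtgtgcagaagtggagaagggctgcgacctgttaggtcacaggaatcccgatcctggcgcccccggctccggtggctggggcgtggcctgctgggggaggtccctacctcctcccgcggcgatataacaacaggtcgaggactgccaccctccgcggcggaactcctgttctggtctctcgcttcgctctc
The Krt8 window held overlapping TATAAA matches on opposite strands, beginning at -3 and -1 from the annotated start, and a CACCTG match beginning at -111. The Krt18 window held a CACCTG match beginning at -214 and no match to the other 4 motifs. CACCTG was present in 4 of the 5 windows (Krt8, Krt18, Krt7 and Krt5) and in 20.2% of all 32851 promoter windows of this length. TATAAA was present in Krt8 alone of the 5 and in 13.6% of all windows. GGGCGG matched 4 times in Krt7 and in no other of the 5, against 35.7% of all windows with a match, and CCAAT and TGANTCA, found in 37.4% and 7.81% of all windows, had no match in the 5. A match is a run of letters and not a measured binding site.

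Values are log2 expression values, and differences are BLM minus PBS in log2 units with the standard error (SE) of a limma fit over all 30142 genes, n = 2 arrays per group. Rose and fell are used only where the Benjamini-Hochberg adjusted p of that fit was under 0.05. Levels of different genes come from different probes. They were set against each other only within arrays, to compare such differences between the groups. Array medians over all transcript clusters ran from 5.44 to 5.49. Xist, the RNA of the inactive X chromosome, measured 15.86 and 15.61 under PBS and 5.60 and 5.43 under BLM, and of the Y-linked genes Kdm5d rose by 2.14 (SE 0.13), Uty by 2.44 (SE 0.23) and Eif2s3y by 2.63 (SE 0.28). Treatment and this sex-linked difference cannot be told apart in any value below. In bulk RNA, fewer cells of a type and less RNA per cell cannot be told apart either.

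Of the 8 keratins, 3 rose (Krt17, Krt18 and Krt19), 1 fell (Krt15) and 4 did not pass (Krt5, Krt7, Krt8 and Krt14). Over all genes 25.3% passed, 15.2% higher and 10.1% lower in BLM. The median difference of the 8 was 0.23, against 0.05 over all genes tested. After cyclic loess scaling over the tested genes, an alternative, these medians were 0.08 and -0.004. Krt15 alone differed by at least 1 log2 unit, a size that 5.14% of all genes reached with a call. PBS and BLM values did not overlap for any of the 8, a pattern seen in 63.3% of all genes. Krt15 was also the only member whose call held in each of the 12 alternative fits. The calls of Krt17, Krt18 and Krt19 were lost in 3, 7 and 6 of the 12.

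**Figure D1:**
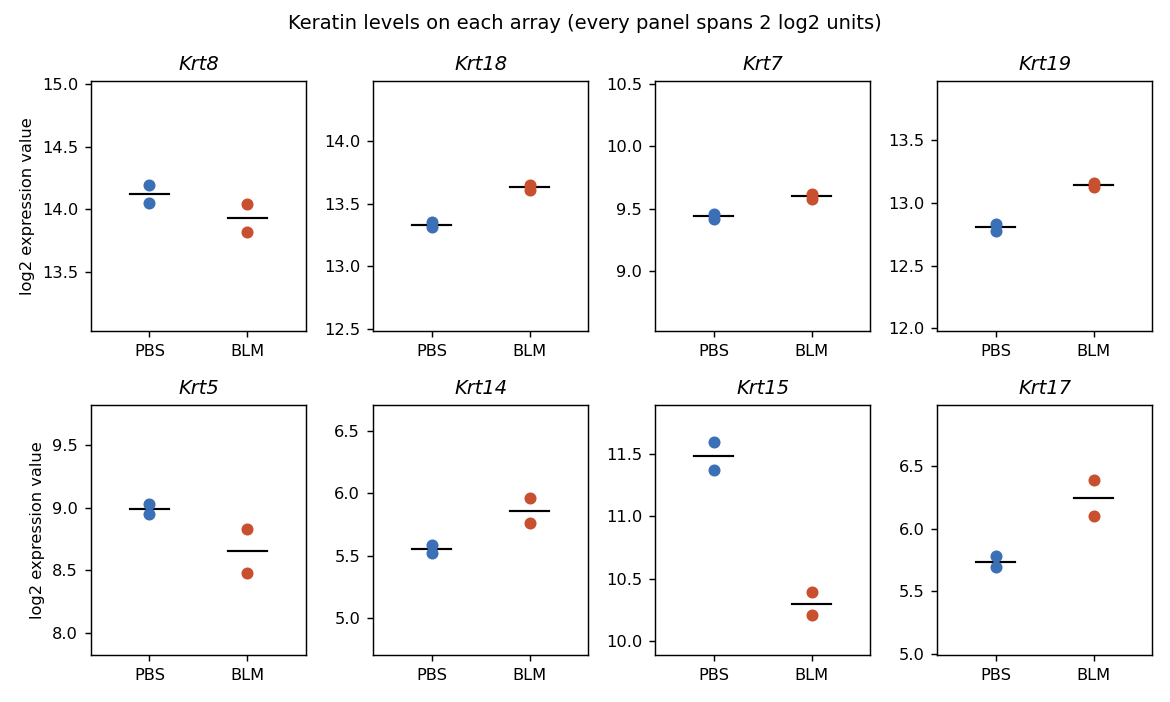
Log2 expression value of each keratin on each array. Points are arrays, 2 per group (PBS blue, BLM red), bars are group means, and every panel spans the same 2 log2 units. Krt15 shows the widest gap between the groups, 11.48 against 10.30 on average, and the groups of Krt8 nearly touch.

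Among the simple-epithelial keratins, the type II chain Krt8 measured 14.19 and 14.05 under PBS and 14.04 and 13.82 under BLM. The lower PBS array and the higher BLM array nearly met, and the BLM replicates lay 0.22 apart. Krt8 differed by -0.19 (SE 0.11, 95% interval -0.47 to 0.09, limma adjusted p = 0.283). Over the 12 alternatives the difference ran from -0.37 to -0.08. Leaving out an array could not change its sign, as both PBS values exceed both BLM values. Its partner Krt18, a type I chain, measured 13.35 and 13.31 under PBS and 13.65 and 13.61 under BLM. The replicates lay within 0.04 of each other and the BLM arrays stood apart above the PBS arrays. Krt18 rose by 0.30 (SE 0.08, 95% interval 0.10 to 0.50, limma adjusted p = 0.0473), or 1.23-fold.

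Krt19, a type I keratin that lacks the tail domain of its relatives, measured 12.78 and 12.83 under PBS and 13.16 and 13.13 under BLM, with every BLM array above every PBS array. It rose by 0.34 (SE 0.08, 95% interval 0.13 to 0.54, limma adjusted p = 0.0345), or 1.26-fold. Krt7, a type II keratin of glandular and lung epithelium, measured 9.46 and 9.42 under PBS and 9.58 and 9.62 under BLM. The BLM arrays were the higher ones, by an amount that missed the threshold, 0.16 (SE 0.08, 95% interval -0.04 to 0.36, limma adjusted p = 0.22).

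The rises of Krt18 and Krt19 were small. Their size changed little when an array was left out, but their calls were lost. Such fits rest on fewer samples and call fewer of all genes. Without each array in turn Krt18 stood between 0.28 and 0.32 with adjusted p between 0.103 and 0.22, past the threshold in none of the 4 fits. Krt19 stood between 0.31 and 0.36 with adjusted p between 0.075 and 0.171, again past it in none. After cyclic loess scaling over the tested genes Krt18 stood at 0.12 (adjusted p = 0.323) and Krt19 at 0.15 (adjusted p = 0.22), while Krt8 stood at -0.37 (adjusted p = 0.0527). That scaling also brought the share of all calls that were higher in BLM from 60.1% to 49.6%.

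Among the basal keratins, Krt15 showed the greatest difference of the 8. It measured 11.59 and 11.37 under PBS and 10.39 and 10.21 under BLM. The lowest PBS array stood well above the highest BLM array, by far more than the 0.22 between PBS replicates. Krt15 fell by 1.18 (SE 0.12, 95% interval -1.47 to -0.88, limma adjusted p = 0.00227). On the linear scale it fell by 55.8%. The difference ran from -1.29 to -1.07 without each array in turn, with adjusted p from 0.00766 to 0.0139, and was -1.34 after cyclic loess over the tested genes.

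Krt5, the type II keratin of basal cells, measured 9.03 and 8.95 under PBS and 8.48 and 8.83 under BLM. BLM replicate 1 was the low array, and the BLM replicates were 0.34 apart, the widest gap within a group among the 8 genes. Krt5 differed by -0.33 (SE 0.13, 95% interval -0.67 to 0.005, limma adjusted p = 0.138), by -0.16 without BLM replicate 1 and by -0.50 without BLM replicate 2. Krt14, its usual type I partner, measured 5.52 and 5.59 under PBS and 5.96 and 5.76 under BLM. These levels are dim, with 43.5% of the 5222 features the file names as negative controls lying below the Krt14 mean. Krt14 differed by 0.31 (SE 0.10, 95% interval 0.05 to 0.57, limma adjusted p = 0.0835).

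Krt17, a type I keratin induced in injured and regenerating epithelia, measured 5.78 and 5.69 under PBS and 6.39 and 6.10 under BLM. Both BLM arrays were higher, replicate 1 more so. Krt17 rose by 0.51 (SE 0.12, 95% interval 0.20 to 0.82, limma adjusted p = 0.0346), or 1.42-fold, at a dim level with 49.1% of the negative controls below it. The call ended when BLM replicate 1 was left out (0.36, adjusted p = 0.139), without PBS replicate 1 (0.55, adjusted p = 0.081) and without PBS replicate 2 (0.47, adjusted p = 0.115), and held without BLM replicate 2 (0.66, adjusted p = 0.0322). The other 6 keratins lay above 87.3% or more of the negative controls.

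**Figure D2:**
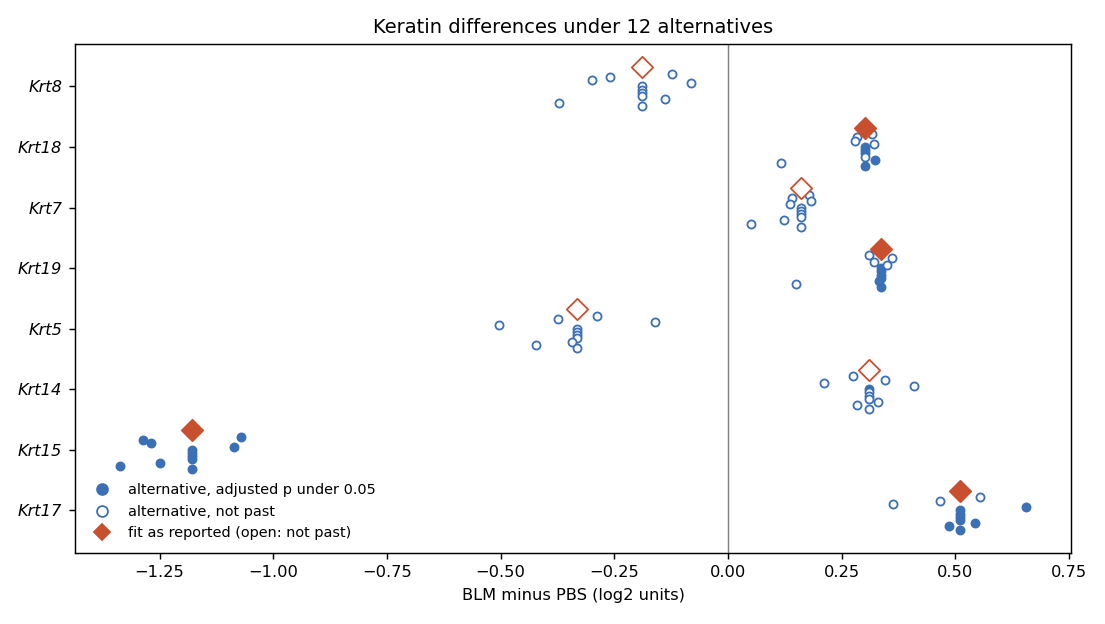
BLM minus PBS difference of each keratin (log2 units) in the fit as reported (diamonds) and in 12 alternative fits (circles, spread vertically for legibility). Filled symbols passed an adjusted p of 0.05. No keratin changes side of 0. Fits without an array cannot change that side, as the groups do not overlap, and of the rest only the loess scalings move a difference. Krt15 alone is filled throughout, between -1.34 and -1.07.

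Within arrays, the balance between keratins was compared for 5 pairs, of which those with Krt14 and Krt17 rest on levels that lie among those of the negative controls. Krt18 minus Krt8 was -0.84 and -0.74 under PBS and -0.39 and -0.21 under BLM, a shift of 0.49 toward Krt18. Krt14 minus Krt5 shifted by 0.64 and Krt17 minus Krt5 by 0.84 on the same scale, whereas Krt15 minus Krt5 shifted by -0.85, from 2.56 and 2.43 to 1.91 and 1.38. Krt19 minus Krt7 shifted by 0.18. The arrays of the groups did not overlap for any of these 5 pairs, nor for any of their genes alone. Among all single genes 63.3% showed no overlap, and the share among all gene pairs was not computed. The two-sided exact permutation p was 0.333 for each of the 5 pairs, and 0.333 after adjustment over the 5. This is the smallest that 2 arrays against 2 can give. The shifts thus describe unequal measured differences that this test could not call. They do not tell which gene of a pair changed.

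In gene order the type I members other than Krt18 lie on chromosome 11, and the type II members and Krt18 on chromosome 15. Krt15 and Krt19 are next to each other and were called in opposite directions, at -1.18 and 0.34. Krt13, on the other side of Krt15, did not pass, at -0.20 (adjusted p = 0.267). Krt9, between Krt19 and Krt14, did not pass either, at 0.05 (adjusted p = 0.753), and Krt16, before Krt17, stood at 0.28 (adjusted p = 0.167). On chromosome 15, Krt78 and Krt18 flank Krt8, with Krt78 at 0.12 (adjusted p = 0.578). Beyond Krt18 the keratin cluster ends, and the next gene measured, the translation factor gene Eif4b, fell by 0.47 (adjusted p = 0.0167). The other genes flanking a member, Krt42, Krt71, Krt88, Gm11597, Gm5478 and Mir1941, did not pass.

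**Figure D3:**
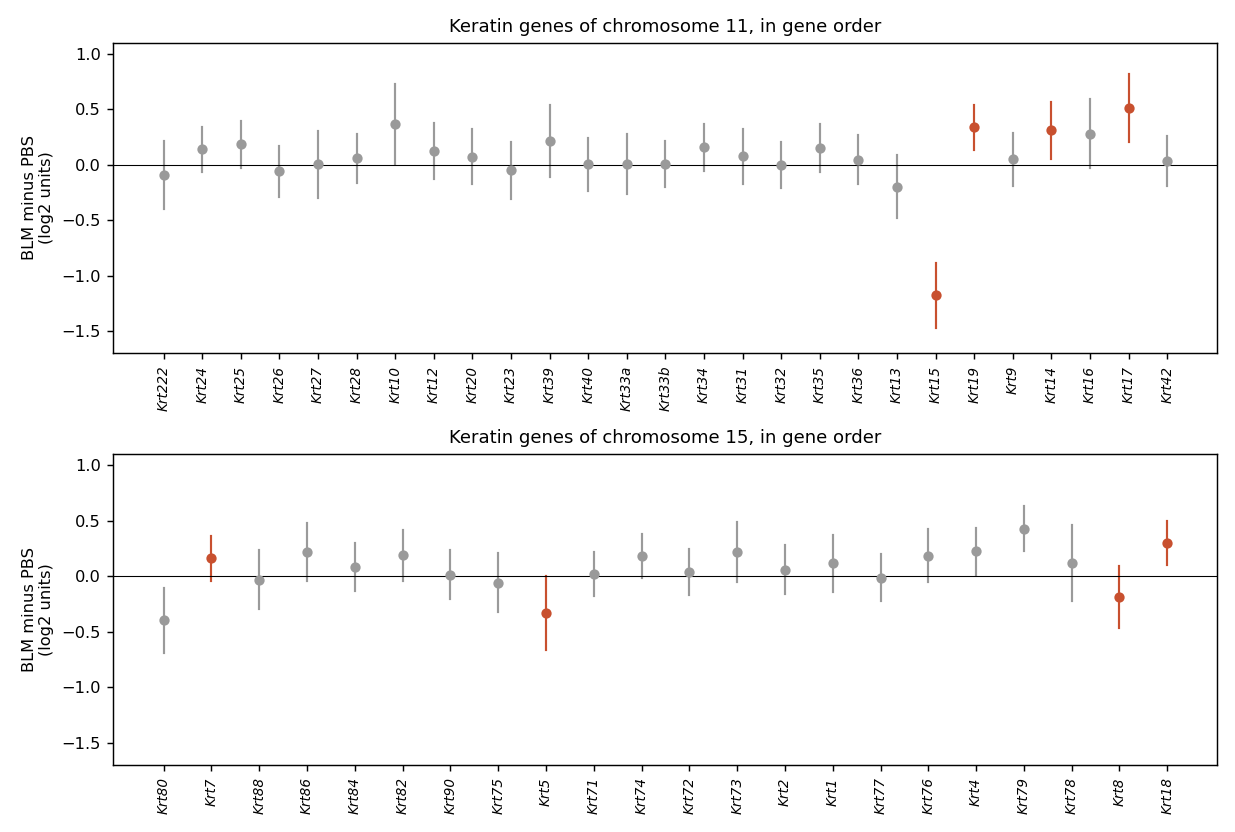
BLM minus PBS difference (log2 units) with its 95% interval for all 49 keratin genes, in gene order on chromosomes 11 and 15, evenly spaced. The 8 listed keratins are red and the others grey. Krt15 lies at -1.18 beside Krt19 at 0.34. Most other keratins lie near 0, and 29 of the 41 have mean levels below the median transcript cluster.

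The other 41 keratin genes serve hair, skin, tongue and other stratified epithelia as well as glands. Of these, 1 rose, none fell and 40 did not pass in the limma fit, where 25.3% of all genes passed. Their median difference was 0.06. In mean level 29 of the 41 lay below the median transcript cluster, as did 12383 of all 30142 genes and 0 of the 8 listed keratins. Krt79, a keratin of hair follicle and sebaceous ducts, rose by 0.43 (SE 0.08, adjusted p = 0.015), from 5.98 and 5.96 to 6.39 and 6.41, with 52.6% of the negative controls below its mean. It kept its call when PBS replicate 1 was left out (adjusted p = 0.0475), and missed the threshold when any other array was (0.0526 for PBS replicate 2, 0.084 and 0.0877 for the BLM arrays). Krt80, a keratin of many epithelia, measured 11.08 and 11.25 under PBS and 10.88 and 10.66 under BLM, and its difference of -0.40 (SE 0.12) narrowly missed the threshold (adjusted p = 0.0626). Krt23 differed by -0.05 (SE 0.10). The repair-associated Krt6a and Krt6b share a cluster that names both, at 6.06 and 5.85 under PBS and 5.87 and 6.01 under BLM, and was not tested.

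Most genes that mark epithelium in general fell, whereas of the 8 keratins only Krt15 passed the test as lower. Whether the keratins differ from these genes was not tested. While 10.1% of all genes fell and 15.2% rose, of 19 genes of epithelial identity 14 fell, 1 rose and 4 did not pass. The median of the 19 was -0.62. The rise, that of Rab25, held without PBS replicate 2 and was lost without any other array. Epcam, an epithelial adhesion molecule, fell by 0.96 (SE 0.08) from 9.83 and 9.81 to 8.85 and 8.86, and Cdh1, E-cadherin, by 0.69 (SE 0.09) from 15.47 and 15.35 to 14.74 and 14.70. The deepest falls of the list were those of the transcription factor gene Ehf at -1.92 (SE 0.10), the channel-activating protease gene Prss8 at -1.77 (SE 0.15) and the epithelial transcription factor gene Grhl2 at -1.34 (SE 0.10). The differences of Krt18, Krt19, Krt7 and Krt14 lay above those of 18 of the 19 genes, that of Krt17 above all 19, that of Krt8 above 15 and that of Krt5 above 14. Krt15 lay above 3. Relative to the mean of the 19 on the same array, Krt18 measured 4.14 and 4.06 under PBS and 5.05 and 5.11 under BLM, a shift of 0.98. On this relative scale Krt19 shifted by 1.02, Krt7 by 0.84, Krt8 by 0.49 and Krt5 by 0.35, and Krt15 by -0.50. The mean of the 19 itself differed by -0.68, which adds the same amount to the shift of every keratin. A shift above 0 is thus not a rise of the keratin, as Krt8 and Krt5 themselves differed by -0.19 and -0.33. The shifts were not tested.

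**Figure D4:**
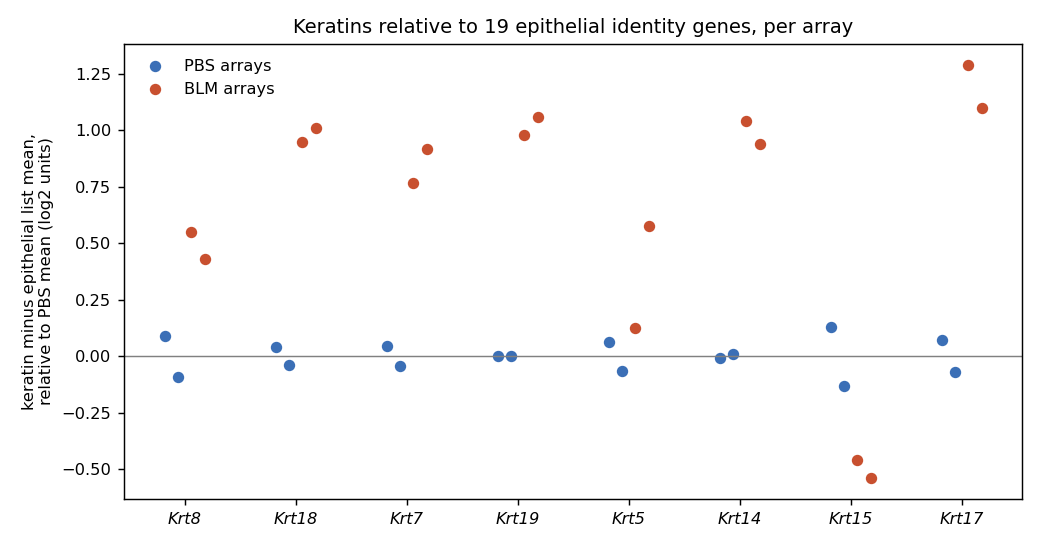
Each keratin minus the mean of 19 epithelial identity genes on the same array (log2 units), set to 0 at the PBS mean. Points are arrays, 2 PBS (blue) and 2 BLM (red) per gene. The mean of the 19 differs by -0.68, which adds the same amount to the shift of every keratin. Krt15 alone has both BLM arrays below the PBS arrays. Krt14 and Krt17 shift by 0.99 and 1.19 at levels among those of the negative controls.

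Of the genes that anchor keratin filaments, those with the largest differences fell. Over all genes 10.1% fell and 15.2% rose. Of 23 genes of desmosomes, hemidesmosomes and keratin-binding plakins, 6 fell, 2 rose (Itga6 and Col17a1) and 15 did not pass. Their median was 0.03 (-0.04 after cyclic loess over the tested genes). Both rises were lost without any 1 of the 4 arrays, and the falls then numbered 3 (without BLM replicate 1) or 4 (without any other array). Ppl, the desmosomal plakin periplakin, fell by 1.92 (SE 0.10), Dsp, desmoplakin, which ties keratins to the desmosome, by 0.90 (SE 0.09), and the desmosome protein gene Perp by 0.73 (SE 0.08). Dsp measured 9.18 and 9.20 under PBS and 8.22 and 8.37 under BLM. Of 16 other intermediate filament genes, 5 rose, 2 fell and 9 did not pass, led by the nuclear lamin gene Lmna at 1.23 (SE 0.08), the mesenchymal filament gene Vim at 1.19 (SE 0.09) and Nes, nestin, at 0.79 (SE 0.09). The rises numbered 3 without any 1 array and after cyclic loess over the tested genes. The falls numbered 1 without PBS replicate 2 and 0 without PBS replicate 1, BLM replicate 1 or BLM replicate 2. Of 14 cornified envelope and barrier genes, 4 rose and none fell, with the envelope precursor gene Sprr1a at 1.88 (SE 0.24), at a dim level with 42.6% of the negative controls below its mean, and the transglutaminase genes Tgm1 and Tgm2 at 1.13 (SE 0.08) and 0.63 (SE 0.08).

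Many calls among basal cell genes were lost when an array was left out, in fits that rest on fewer samples and call fewer of all genes. In the fit on all arrays 15.2% of all genes rose and 10.1% fell. The 13 airway basal cell markers other than keratins share Itga6, Col17a1 and Itgb4 with the desmosome list. They share Trp63 and Sox2 with the list of stratified epithelium. Of these 13, 6 rose, 2 fell and 5 did not pass (4 and 3 after cyclic loess over the tested genes). Without BLM replicate 1, 1 rose and 0 fell, and without BLM replicate 2, 2 rose and 1 fell. Without PBS replicate 1, 2 rose and 2 fell, and without PBS replicate 2, 4 rose and 1 fell. Snai2, a zinc finger repressor also made by fibroblasts, rose by 1.92 (SE 0.21) and stood between 1.62 and 2.23 without each array in turn. The basal cell gene Dapl1 rose by 0.86 (SE 0.15), and Itgb4, an integrin of hemidesmosomes, fell by 0.57 (SE 0.08). Leaving out BLM replicate 1 ended the calls of Dapl1 and Itgb4, at differences of 0.70 and -0.55. Trp63, the transcription factor gene that defines basal cells, measured 5.49 and 5.39 under PBS and 5.62 and 5.56 under BLM, with 39.5% of negative controls below it, and differed by 0.15 (SE 0.09, adjusted p = 0.272). Of 13 transcription factor genes of stratified epithelium, Tfap2a and Sox9 rose by 1.07 (SE 0.11) and 0.85 (SE 0.08), at dim levels with 49.0% and 48.9% of the negative controls below them, Sox2 and Klf5 stood at -0.57 (SE 0.13) and -0.54 (SE 0.09), and 9 did not pass. The Sox2 call held with PBS replicate 1 left out (adjusted p = 0.0159) and ended with PBS replicate 2 (0.057) or with either of the BLM arrays left out (0.113 for replicate 1, 0.094 for replicate 2). The Klf5 call ended with either of the BLM arrays left out (0.0757 and 0.0595).

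Markers of the cells that carry simple keratins differed in direction. Of the transitional alveolar markers other than keratins, 17 of 20 rose and none fell, with a median of 1.33. Cldn4, a claudin, rose from 8.25 and 8.10 to 10.78 and 10.58. Cdkn1a, a cell cycle inhibitor, rose by 2.88 (SE 0.11) and Sfn, an epithelial adaptor protein gene, by 0.67 (SE 0.08), while Krt8, Krt7, Krt18 and Krt19 lay between -0.19 and 0.34. Some of these markers, such as Fn1 at 4.14 (SE 0.08), are also made by fibroblasts, whose own list had 7 of 9 genes rising. Of alveolar type 1 markers, 2 of 16 rose, 2 fell and 12 did not pass. These shares are near the 15.2% of all genes that rose and the 10.1% that fell. The type 1 median was 0.04. The median was -0.09 after cyclic loess over the tested genes and -0.03 without PBS replicate 1 or without BLM replicate 1. Ager stood at 0.31 (SE 0.10, adjusted p = 0.0734). Of alveolar type 2 markers, 14 of 15 fell, with a median of -0.98. The exception was Sftpc, which did not pass, at 0.12 (SE 0.12). Of club and secretory markers 8 of 12 fell, with Scgb1a1 at -1.68 (SE 0.08). Of ciliated cell markers 14 of 15 fell.

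Mesothelium also makes simple keratins. The counts below stand beside 15.2% of all genes that rose and 10.1% that fell. Of 12 mesothelial markers, 5 rose and none fell, with mean levels of 6.95 and 7.25 under PBS and 7.61 and 7.63 under BLM. Among them Msln, mesothelin, rose by 1.28 (SE 0.10), with 68% of the negative controls below its mean. The rises numbered 3 without BLM replicate 1 or without BLM replicate 2, and the list's median of 0.21 was 0.02 without PBS replicate 1 and 0.41 without PBS replicate 2. Leukocyte markers rose in 11 of 15 cases, with mean levels of 6.24 and 6.27 against 7.63 and 7.69. Ptprc, the gene of the CD45 marker itself, rose by 0.94 (SE 0.08) from 6.30 and 6.21 to 7.19 and 7.20. Its PBS values lay near the negative control medians of those arrays, 6.16 and 6.21. Endothelial markers rose in 3 and fell in 1 of 9 (2 and 2 after cyclic loess over the tested genes). The part of these cells in the keratin values was not tested.

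**Figure D5:**
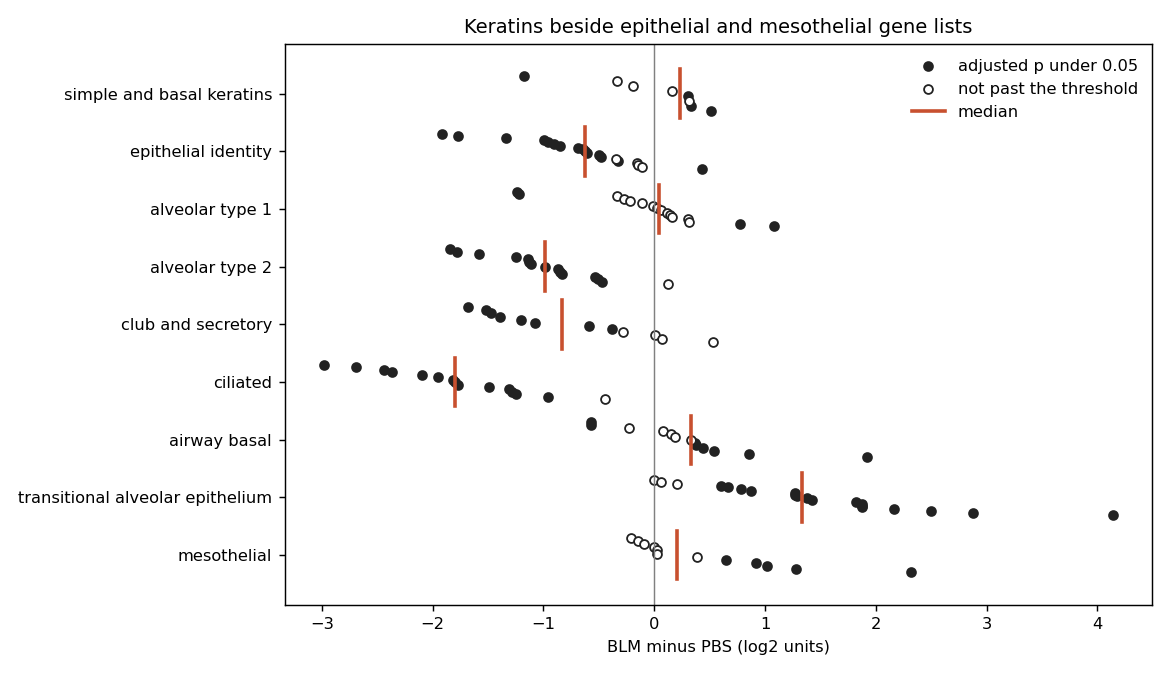
BLM minus PBS difference (log2 units) of each of the 8 keratins and of the genes of 8 lists that leave them out. Filled points passed an adjusted p of 0.05, vertical red lines are list medians, and height within a row only separates points. The keratins lie around a median of 0.23 (0.08 after cyclic loess over the tested genes), between the epithelial identity genes at -0.62 and the transitional markers at 1.33.

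The genes whose values ran closest to a called keratin over the 4 arrays were found by the Euclidean distance of array values from each gene's own mean. Nearest to Krt15 were H2bc18 (distance 0.0444), Gm8652 (0.0582) and Ccdc170 (0.0677), with differences of -1.21, -1.13 and -1.14. Nearest to Krt17 were Gm13472 (0.013), Zfp938 (0.0172) and Babam2 (0.0336). Nearest to Krt18 were Nlrp5 (0.0089), Ythdf3 (0.0103) and Gm16580 (0.0108), and nearest to Krt19 were Anapc2 (0.00885), Npm1 (0.0101) and Wdr12 (0.0111). With 4 arrays and 30142 genes to draw from, such neighbours are a description only.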

How the data were processed

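Per the submitters' processing notes, RMA and Affymetrix Expression Console gave the log2 values per transcript cluster that the authors deposited. RMA corrects background, quantile-scales the arrays and combines probes. Software versions, the genome build of the array and any further scaling: not given in the sources used here. No detection calls were used, and dim genes stayed in the test. Of 65956 transcript clusters, 30604 name 1 gene symbol. The cluster with the highest mean was kept per gene, leaving 30142 genes, and each of the 8 keratins has 1 cluster. Groups follow the sample titles.

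The BLM against PBS test was limma's moderated test (version 3.58.1, R 4.3.3, lmFit and eBayes). It was two-sided, p-values were adjusted by Benjamini-Hochberg across the 30142 genes, and 0.05 was the threshold. The fit had 2 residual and 3.33 prior degrees of freedom, and the number of arrays limits the precision. The alternatives stand in the closing section. The steps were tested on simulated data. The keratins and all lists were chosen with earlier results of these data known. Named were all 8 keratins, the called other keratins, a fixed panel, up to 3 called genes per list with the largest differences, and neighbours in gene order and in pattern. Krt80, Krt23, Klf5 and Rab25 were singled out after values were seen. Foxj1, on the panel, was not analysed here.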

Additional observations from a re-analysis of the deposited data

How the results depend on the processing

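Alternatives were a replicate block, leaving out each array, dropping dim genes, averaging a gene's clusters, median centring, a robust trended prior, leaving out X and Y genes, cyclic loess over all transcript clusters and, added after the data were seen, cyclic loess over the tested genes. No keratin changed sign in these 12 fits, but few of the fits put the sign to the test. Without an array it could not change, as the groups did not overlap for any of the keratins. Of the other fits, only the loess scalings moved a keratin's difference. Of 96 single-keratin values 79 kept their side of the threshold. Called keratins numbered 4, with 1 to 2 when an array was left out, 2 with the replicate block and 2 after cyclic loess over the tested genes. Other keratins called numbered 1, with 0 to 1 when an array was left out, and 2 with the dim filter, the trended prior and either loess. All genes called numbered 7629, with 4003 (without BLM replicate 1) to 5956 (without PBS replicate 2) when an array was left out. With the replicate block, Krt18 stood at 0.30 (adjusted p = 0.0814) and Krt19 at 0.34 (adjusted p = 0.0656). With median centring Krt18 stood at 0.30 (adjusted p = 0.0512), and with the dim filter Krt14 at 0.31 (adjusted p = 0.0472). After cyclic loess over the tested genes Krt18 stood at 0.12 and Krt19 at 0.15. Without each array in turn the ranges were 0.28 to 0.32 for Krt18, 0.31 to 0.36 for Krt19 and 0.36 to 0.66 for Krt17. Fits without an array rest on fewer samples. For the other lost calls the cause was not tested. Replicate numbers are a shared label only. Replicate deviations of the groups correlated with r = 0.014 across genes, so the block is given as a check on the pairing and no more.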
